A study of Mus musculus with 18 samples.

Results

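The genes described here are the mouse genes whose symbols begin with Ube2, the naming root of the ubiquitin-conjugating (E2) enzymes. They were taken as the protein-coding genes of the GENCODE vM21 annotation with such a symbol, with Ube2c and Ube2s left out, which gave 35 of the 27874 genes in the table, and all 35 had values. The measurements came from oocytes of wild-type mice (WT) and of Lsm14b-/- mice (KO), which lack a protein that binds RNA in cytoplasmic granules. Oocytes were taken at the germinal vesicle stage (GV, arrested before meiotic maturation), at metaphase I (MI), and at a later time called MII in both genotypes, 14 h after the hormone human chorionic gonadotropin (hCG). Each of the 6 groups had 3 libraries of 15 oocytes. The sources used here do not give the strain, the age or the knockout allele, nor whether KO oocytes of the last group had reached metaphase II. The labels do not say whether the libraries of a group came from separate mice, so p-values measure the spread between these libraries.

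The libraries held 14577125 to 17636718 reads on genes and 7352 to 9795 genes at 1 FPKM or more. FPKM is a read count scaled by exon length and by library depth. Lsm14b itself measured 2.04 to 11.2 FPKM in the 9 WT libraries and 0 to 0.234 in the 9 KO libraries. All 12 oocyte markers examined were at 1 FPKM or more in every group except WT MII, where 11 were. Of 14 cumulus and granulosa cell markers, 2 to 5 reached 1 FPKM, and their summed level was 5.33 to 12.5 FPKM per library against 10223 to 29335 for the oocyte markers. The cumulus sum was 5.33 to 9.42 FPKM in WT GV and 9.05 to 12 in KO GV, and its part in the differences at GV was not tested. Foxl2, Ptx3 and Tnfaip6 were at 0 in all 3 WT GV libraries, and Lhcgr, Ptx3 and Tnfaip6 in all 3 KO GV libraries. The highest cumulus marker was Cyp19a1 in WT GV (mean 3 FPKM) and Nr5a2 in KO GV (3.19). Of the 5 cumulus markers tested, 2 were called higher in KO at GV (list median 0.38), where 13.3% of all genes were. At MII 1 was called lower. Of 6 blood cell markers in the table, Hba-a1 and Hbb-bs were at 0 in every library outside WT MII. Their summed level was 0.507 to 0.738 FPKM in WT GV against 1.71 to 2.18 in KO GV, 1.05 to 30 in WT MI (mostly Lyz2) against 1.61 to 2.31 in KO MI, and 0.538 to 1.43 in WT MII against 1.31 to 7.73 in KO MII. The 1 blood marker tested was called higher in KO at MII (0.92), and the part of these cells in the results was not tested. The KO GV libraries spread widely and replicate 2 had the lowest summed level of Ube2 genes, so results at GV are given with and without it. With 3 libraries per group no test of a library standing apart was possible. Leaving out KO GV replicate 3 instead raised the number of all genes called at GV from 2146 to 4102, and leaving out replicate 2 lowered it to 1015.

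Ubiquitin is a small protein that cells attach to other proteins to mark them for the proteasome or to change what they do. An activating enzyme (E1) loads ubiquitin, an E2 takes it over as a thioester, and a ligase (E3) brings the loaded E2 to the substrate. The E2 often decides whether a single ubiquitin or a chain is built, and of which kind. In oocytes, timed degradation of proteins by this system drives the passage through the meiotic divisions, while most mRNA is made before maturation and is then translated or cleared on a schedule. The table measured mRNA and not enzyme. Because the cDNA was primed with oligo(dT), a level may depend on poly(A) tail length as well as on the number of molecules. FPKM is a share of a library and does not give the amount of RNA per oocyte. All libraries were made from the same number of oocytes, so oocyte number does not differ between them by design. A rise or fall from GV to MII below is a change in share, and a change in molecules per oocyte was not tested. For other cell types, such as cumulus cells, fewer cells and less RNA per cell cannot be told apart.

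Most of the Ube2 genes were detected in oocytes, at very different levels. The highest group mean was at least 10 FPKM for 12 of the 35 genes, from 1 to 10 FPKM for 15 and under 1 FPKM for 8. Averaged over 18 libraries, Ube2d3 was the highest, at 225.9 FPKM (range 81.6 to 361.7), and Ube2t followed at 158.5 FPKM (range 40.9 to 313.9). Below these came, among others, Ube2w at 83.4, Ube2g1 at 73.1, Ube2a at 43.1, Ube2h at 35.8 and Ube2k at 27 FPKM. The ranges of neighbours among these overlapped. The order at the top depended on the group: Ube2t was the highest member in WT GV (277.9 FPKM against 249.1 for Ube2d3) and WT MI (245.4 against 182.3), and Ube2d3 in the other 4 groups. The length used for FPKM appears to be the union of all annotated exons, such as 24499 bases for Ube2d3, so levels of different genes depend on their annotation. The 5 highest members of a group held 69.5% to 79.8% of the summed level of all 35.

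**Figure D1:**
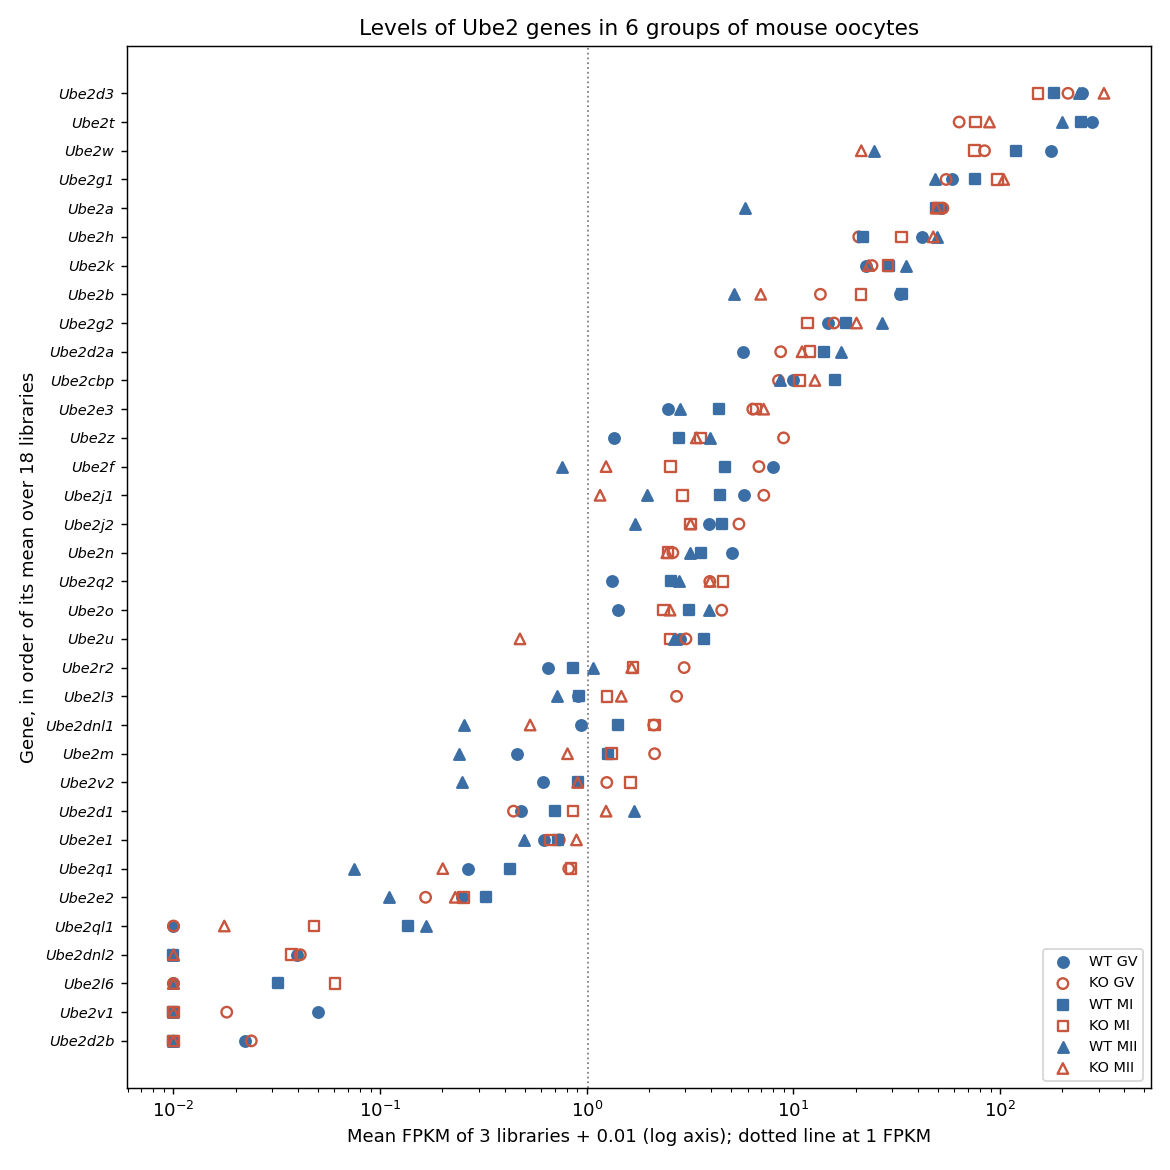
Mean FPKM of the Ube2 genes reported (rows, in order of the mean over 18 libraries) in the 6 groups, on a log axis with a small offset so that genes at 0 can be drawn; blue is WT, red is KO, and circles, squares and triangles are GV, MI and MII. The blue triangle of Ube2a (WT MII) lies far to the left of the other 5 groups, and the red open symbols of Ube2t lie to the left of the blue ones.

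The summed level of the 35 genes was 978.2 to 1074.5 FPKM in the WT GV libraries and 722.5, 415.3 and 873.6 in the 3 KO GV libraries, the middle value being replicate 2. At MI the sums were 917.1 ± 81.5 FPKM in WT and 686.0 ± 74.7 in KO (SD, n = 3). At MII they were 748.3 ± 9.98 in WT and 822.7 ± 25.5 in KO. The KO libraries thus lay below WT at GV and MI and above WT at MII, without overlap at any stage. The sum is carried by few genes, and Ube2t alone made up 26.7% of it in WT GV. Without Ube2t the sums of the genotypes overlapped at GV and at MI and stayed apart at MII.

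A gene was tested if 3 or more libraries reached 1 FPKM, which 10320 genes did, and 27 of the 35 Ube2 genes passed. The other 8 were Ube2d2b, Ube2dnl2, Ube2e1, Ube2e2, Ube2l6, Ube2q1, Ube2ql1 and Ube2v1. Of these, Ube2v1, the partner that lets Ube2n build its chains, cannot be judged from this table, since 69.1% of its exon bases are shared with overlapping genes and it was listed at 0 to 0.0726 FPKM. Ube2d1, Ube2m and Ube2v2 passed with 7 libraries each, Ube2dnl1 with 9, Ube2l3 with 10 and Ube2r2 with 11, so a gene high in few groups could pass through those groups and then had to differ between groups. Beside each count below stands the count over the 21 members that reached 1 FPKM in at least 12 libraries. The share of all genes under that stricter filter was not counted. The shares of all genes given below are for all tested genes and do not match the 21. Ube2cbp, a ligase named for binding an E2, is a member by symbol and not an E2.

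Changes are differences of log2(FPKM + 1), which understate the change of low genes. They were tested with limma in 1 fit of all 18 libraries, with Benjamini-Hochberg adjusted p under 0.05 over all 10320 genes as the call. "Higher" and "lower" refer to KO against WT unless a stage change is named.

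Counted over the 27 tested members, 10 were called at GV, 5 higher (Ube2e3, Ube2l3, Ube2q2, Ube2r2 and Ube2z) and 5 lower (Ube2t, Ube2b, Ube2h, Ube2n and Ube2w). That is 37.0% of the members, where 20.8% of all tested genes were called, 13.3% higher and 7.49% lower. Of the 21 more widely detected members 8 were called, 3 higher and 5 lower, without a matching share of all genes. With the filter at 5 FPKM 7 of 18 members were called (38.9%, and 24.7% of all genes). The median log2 difference was 0.044 for the members and 0.174 for all genes. Without KO GV replicate 2 the calls numbered 4 (14.8% of the members, where 1015 of 10116 genes were called), namely Ube2t, Ube2b, Ube2e3 and Ube2l3. They numbered 5 (18.5%) without WT GV replicate 2, WT GV replicate 3 or KO GV replicate 1, where 12.2%, 8.72% and 11.9% of all genes were called, and 14 (51.9%) without KO GV replicate 3, where 4102 of 10262 genes were. In a fit of the GV libraries alone Ube2t was the 1 call (3.70%, and 2.93% of all genes). Without a filter on low values 6 of 35 members were called (17.1%, and 5.26% of all genes).

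At MI 1 member was called, Ube2t (3.70% of the members, where 17.3% of all genes were called, 3.63% higher and 13.7% lower). The call was also the 1 call among the 21 more widely detected members. With the libraries rescaled the count was 3 by median-of-ratios scaling, 2 higher and 1 lower (11.1%, and 19.7% of all genes), and 4 by quantile normalization, 3 higher and 1 lower (14.8%, and 20.6%). It was 2 (7.41%) without KO GV replicate 2 and 2 without KO GV replicate 3, both lower, where 22.5% and 21.3% of all genes were called. The median difference was 0.025 for the members and -0.132 for all genes. At MII 6 members were called, 4 higher (Ube2a, Ube2g1, Ube2e3 and Ube2l3) and 2 lower (Ube2t and Ube2u), which is 22.2%, where 28.6% of all genes were called, 14.9% higher and 13.8% lower. Of the 21 more widely detected members 3 were higher and 2 lower. The medians were 0.311 and 0.007. A fit of the MII libraries alone called 10, 7 higher and 3 lower, which is 37.0% of the members, where 36.9% of all genes were called. In all, 13 members were called at 1 stage or more, of which Ube2t at 3 stages, Ube2e3 and Ube2l3 at 2 and the other 10 at 1, and 14 at none. The matching counts over all tested genes were not made, so these have no background to stand against.

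**Figure D2:**
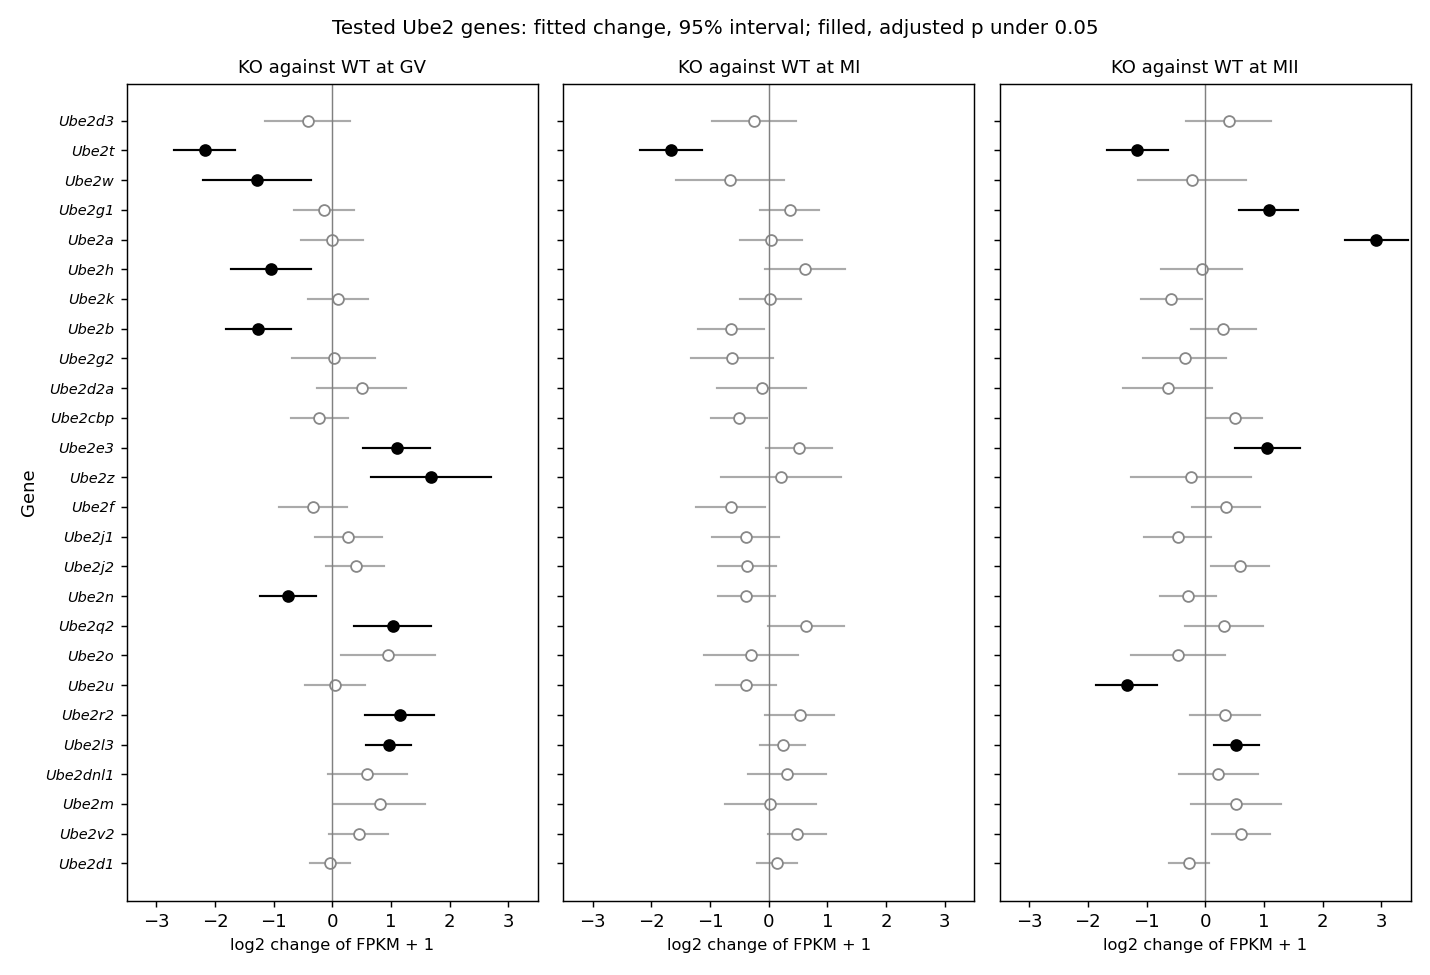
Fitted log2 difference of FPKM + 1, KO against WT, with its 95% interval (bars) for the tested Ube2 genes reported (rows, in order of mean level) at GV, MI and MII; filled points have an adjusted p under 0.05. Filled points number 10 at GV, 1 at MI and 6 at MII, and the point of Ube2a lies at 0 at GV and MI and at 2.92 at MII.

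From GV to MII, 11 members were called in WT, 5 that rose (Ube2d1, Ube2d2a, Ube2g2, Ube2k and Ube2o) and 6 that fell (Ube2a, Ube2b, Ube2f, Ube2j1, Ube2j2 and Ube2w). This is 40.7% of the members, where 57.7% of all tested genes were called, 28.9% rising and 28.8% falling. In KO 12 were called, 4 that rose (Ube2d1, Ube2g1 and Ube2h among them) and 8 that fell (Ube2b, Ube2dnl1, Ube2f, Ube2j1, Ube2j2, Ube2l3, Ube2u and Ube2w), which is 44.4%, where 37.2% of all genes were called, 11.9% rising and 25.4% falling. Ube2d1 is counted in both although it reached 1 FPKM in no GV library, and over the 21 more widely detected members the calls numbered 10 in WT and 9 in KO. Fits of the GV and MII libraries of 1 genotype alone called 17 of 27 in WT (where 66.4% of all genes were called) and 6 in KO (22.2%, and 23.6% of all genes). Without KO GV replicate 2, where 32.9% of all genes were called, 9 of the 12 remained in KO, and Ube2dnl1 and Ube2j2 were among those that did not. The split depended on scaling, for the members and for all tested genes. Quantile normalization gave 8 rises and 6 falls in WT and 7 and 4 in KO. In that fit 3895 of 10320 genes rose and 2867 fell in WT, and 3064 rose and 2188 fell in KO. Median-of-ratios scaling gave 5 and 5 in KO, where 2245 genes rose and 2484 fell. Without added scaling 1224 genes rose and 2618 fell in KO. Called in both genotypes and in 1 direction were 6 members, Ube2b, Ube2d1, Ube2f, Ube2j1, Ube2j2 and Ube2w, and none went in opposite directions. How many of all tested genes did either was not counted, so this is not shown to be particular to the members. A call in 1 genotype alone does not show a difference between them.

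The difference itself was called for 4 members (14.8%, where 5.61% of all genes were called, 3.88% higher and 1.73% lower), higher for Ube2a, Ube2b and Ube2g1 and lower for Ube2u, all 4 among the 21 more widely detected members. Ube2a was the one call made in every alternative fit, at 2.67 (limma adjusted p = 7.86e-05) without KO GV replicate 2. The count ranged from 1 to 12 when 1 library was left out, and the share of all genes called moved with it, from 2.09% to 27.4%. It was 1 without WT GV replicate 1, without WT MII replicate 1 or 3 or without KO MII replicate 1. It was 2 without WT GV replicate 3, KO GV replicate 2, WT MII replicate 2 or KO MII replicate 2, and 12 (44.4%) without KO GV replicate 3, where 27.4% of all genes were called. Without KO GV replicate 2 the share of all genes was 5.09%. The count was 1 without a filter on low values (2.86% of 35 members, and 0.961% of all genes) and 2 in a fit of the 4 GV and MII groups alone (7.41%, and 4.16% of all genes).

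**Figure D3:**
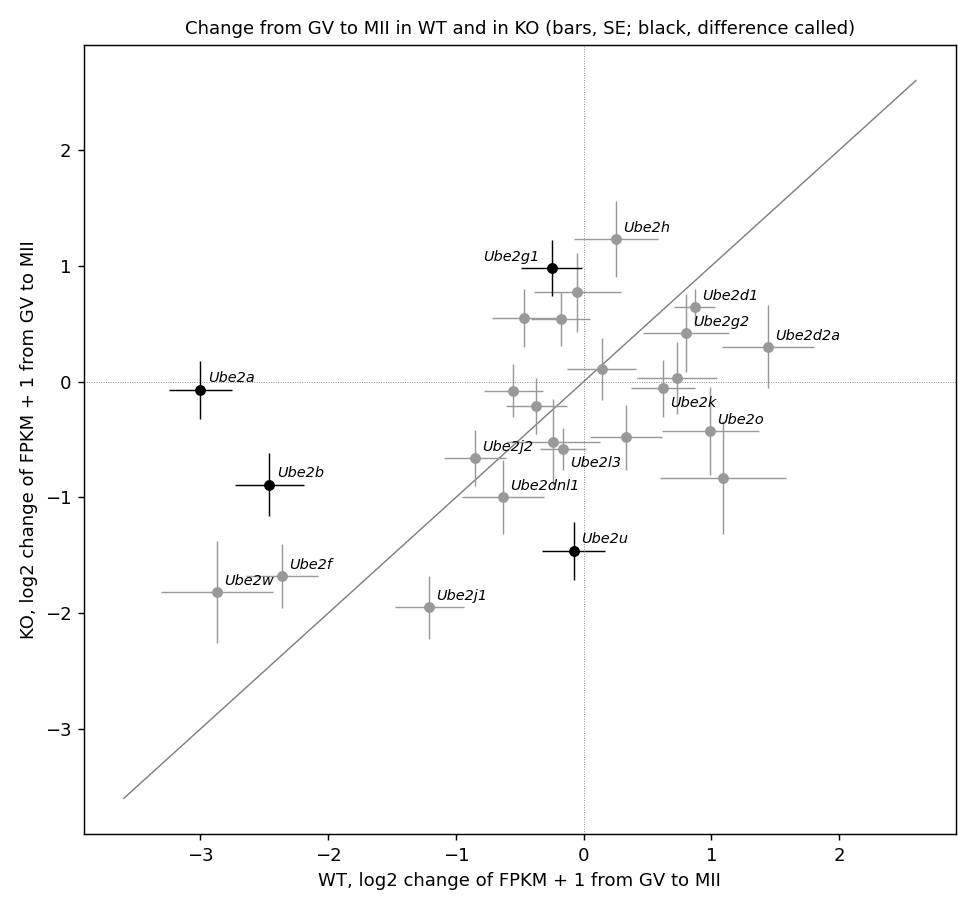
Log2 change of FPKM + 1 from GV to MII in WT (x axis) and in KO (y axis) for the tested Ube2 genes reported, with SE as bars and the line of equal change; black points have a called difference between the genotypes, and genes called in either genotype are named. Ube2a lies at -3.00 on the x axis and -0.07 on the y axis, and Ube2f, Ube2j1 and Ube2w lie low on both.

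A pair of RAD6-type enzymes and Ube2t form the DNA repair group. In KO against WT, Ube2a was called at MII alone, Ube2b at GV alone and Ube2t at all 3 stages. The matching count over all tested genes was not made. Ube2a and Ube2b are close homologues that ubiquitinate histone H2B with Rnf20 and Rnf40 and the replication clamp PCNA with Rad18. Ube2t is the E2 of the Fanconi anaemia pathway, in which it works with the ligase Fancl.

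Ube2a (ENSMUSG00000016308, chromosome X, 36873900 to 36884222 on the plus strand of the mm10 assembly) was the gene with the largest difference at MII among the members. WT oocytes held 55.7, 50.5 and 48.6 FPKM at GV, 42.5, 57.4 and 47.6 at MI, and 8.35, 4.79 and 4.28 at MII. KO oocytes held 57.5, 35.7 and 65.5 FPKM at GV, 53.6, 50.1 and 47 at MI, and 55.4, 47.7 and 44.1 at MII. The WT MII libraries were thus below all 15 others. The KO MII libraries lay within the range of the GV and MI libraries, but were all below KO GV replicates 1 and 3, with only KO GV replicate 2 lower. The mean fell 8.89-fold from GV to MII in WT, a log2 change of -3.00 (SE 0.25, limma adjusted p = 1.9e-08). In KO the change was -0.07 (95% interval -0.60 to 0.46, adjusted p = 0.857), and -0.32 without KO GV replicate 2 (adjusted p = 0.317). The difference between the genotypes in this change was 2.93 (SE 0.36, adjusted p = 0.000103). At MII the KO mean was 8.46-fold that of WT, a log2 difference of 2.92 (SE 0.25, adjusted p = 2.03e-07). At GV and MI the differences were -0.01 (95% interval -0.53 to 0.52) and 0.04 (-0.49 to 0.57). The calls at MII, in WT and in the difference were made in every alternative fit. Of the 12 oocyte markers, 8 fell from GV to MII in WT (median -2.02), where 28.8% of all tested genes fell. In KO 7 fell and 1 rose (median -1.05), where 25.4% and 11.9% of all tested genes did. At MII 7 were higher in KO (median 1.69), where 14.9% of all tested genes were. In the difference between genotypes 4 were called higher, where 3.88% of all tested genes were. The part of the oocyte markers in the pattern of Ube2a was not tested.

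Ube2b (ENSMUSG00000020390, chromosome 11, 51985497 to 52000762, minus strand) differed from Ube2a in that KO oocytes were already low at GV. WT GV libraries held 34.2, 27.9 and 36.3 FPKM and KO GV libraries 12.9, 9.23 and 18.4, without overlap. The log2 difference was -1.26 (SE 0.27, limma adjusted p = 0.00415), and -1.03 (adjusted p = 0.0211) without KO GV replicate 2. The call at GV was lost in a fit of the GV libraries alone. At MI WT held 31.8, 30.9 and 38.3 FPKM and KO 19.2, 20.3 and 24.1, again without overlap, but the difference of -0.64 was not called (adjusted p = 0.108). At MII WT held 4.71, 6.12 and 4.63 FPKM and KO 10.2, 4.39 and 6.27, and here the groups overlapped (log2 difference 0.31, adjusted p = 0.423). Both genotypes fell from GV to MII, by 2.46 on the log2 scale in WT (adjusted p = 5.17e-07) and by 0.89 in KO (adjusted p = 0.0142). The fall was smaller in KO by 1.57 (SE 0.38, adjusted p = 0.023). That difference lost its call without any 1 of WT GV replicates 1 and 3, WT MII replicates 1 and 3 and KO MII replicate 1 (adjusted p 0.00375 to 0.0734 over all alternatives). The fall in KO lost its call without KO GV replicate 3 or KO MII replicate 2, under both other scalings, and in a fit of the KO GV and MII libraries alone.

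Ube2t (ENSMUSG00000026429, chromosome 1, 134962565 to 134974162, plus strand) was lower in KO at all 3 stages, the one member with a call at each. At GV the WT libraries held 287.6, 232.2 and 313.9 FPKM and the KO libraries 59.9, 40.9 and 89.4. At MI the values were 264.5, 192.2 and 279.4 in WT and 74.6, 80.3 and 72.9 in KO. At MII they were 186.7, 225.1 and 187.4 in WT and 92.9, 79.5 and 94.3 in KO. Every KO library was below every WT library, and the KO level was low before maturation began. The WT mean was 4.38-fold, 3.23-fold and 2.25-fold the KO mean at GV, MI and MII. The log2 differences were -2.17 (SE 0.25, limma adjusted p = 2.18e-05), -1.66 (adjusted p = 0.000195) and -1.16 (adjusted p = 0.00196). These 3 calls were made in every alternative fit, also without KO GV replicate 2 (-1.90, adjusted p = 5.58e-05).

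**Figure D4:**
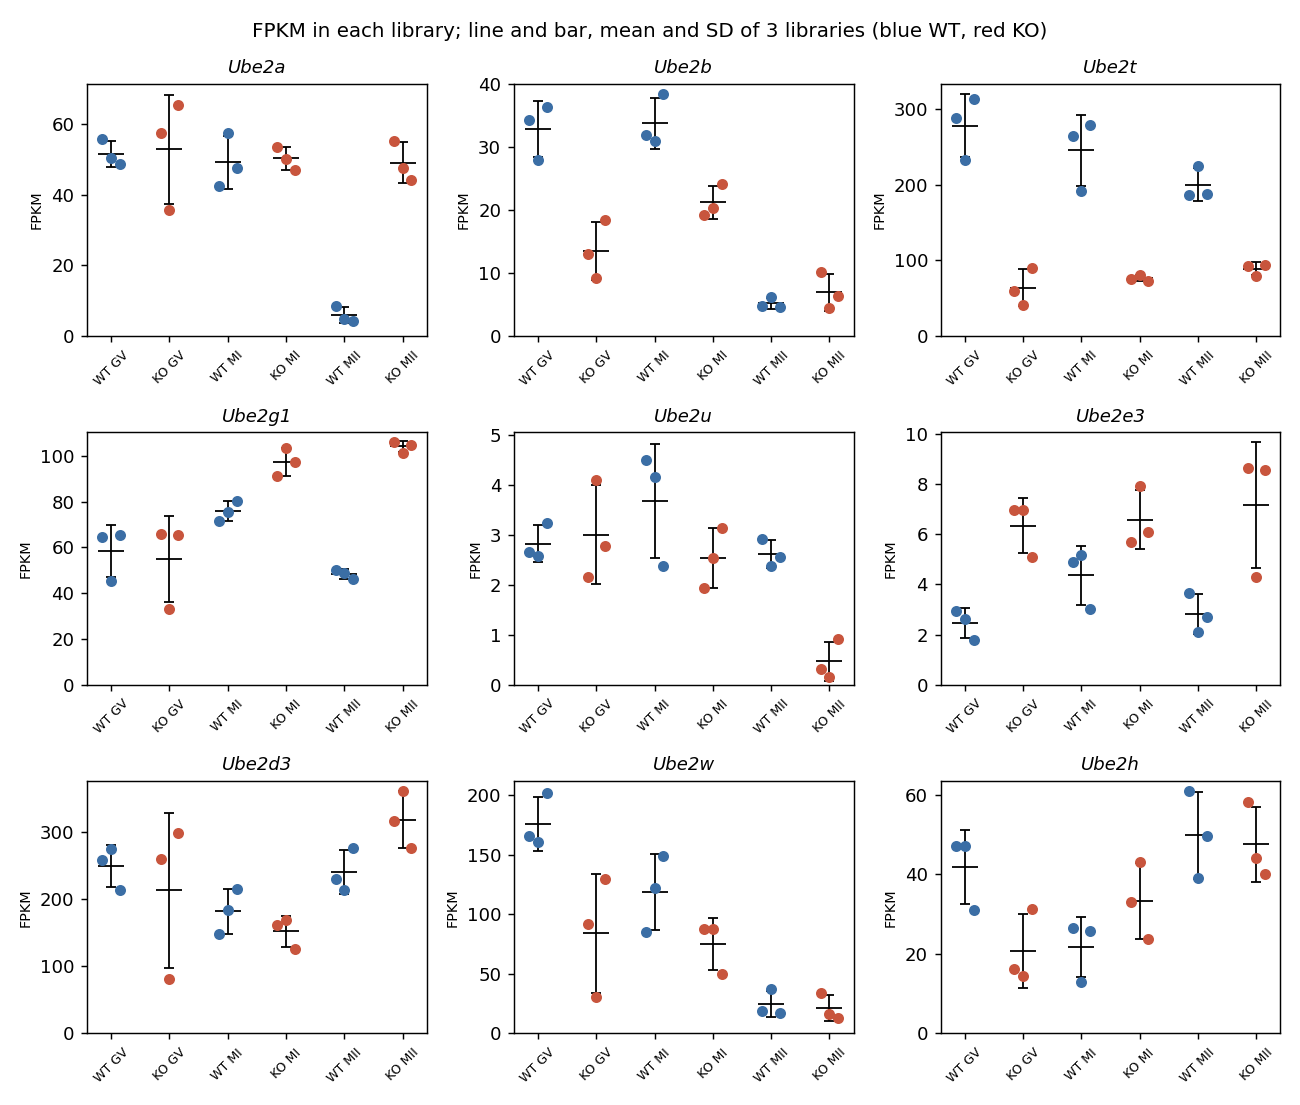
FPKM in each library (points), with the mean and SD of 3 libraries (line and bar), for 9 Ube2 genes in the 6 groups; the y axis starts at 0 in each panel. Ube2a drops in WT MII to 4.28 to 8.35 FPKM and stays at 44.1 to 55.4 in KO MII, Ube2t is lower in KO at each stage, and 1 KO GV library is low for Ube2d3 and Ube2w.

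Parts of the 3′ ends of these mRNAs are shown because the stability and translation of oocyte mRNAs are known to depend on short elements near the poly(A) site. The sequences are 30-base windows around an element in 1 annotated transcript per gene of GENCODE vM21, 5′ to 3′ and on the transcript strand. They are not the last bases: the annotated end lies 15 bases after the hexamer in Ube2a, 16 in Ube2t and 19 in Ube2g1 and Ube2e3. Capitals mark the polyadenylation hexamer (AATAAA or ATTAAA, searched in the last 40 bases) or a cytoplasmic polyadenylation element (CPE, searched as TTTTAT and TTTTAAT in the last 100 bases of the 3′UTR). TTTTAAT can overlap AATAAA, and the annotated end may not be the one used in oocytes.

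Ube2a hexamer window: ctgtacattttcaaaagttgtaAATAAAaa
Ube2t hexamer window: tagaaaacttttaaacttgaaaAATAAAta
Ube2g1 hexamer window: tgtgatgggtgctctataaatcAATAAAtg
Ube2e3 hexamer window: tatttttttcccctgtgcctggAATAAAtt
Ube2t CPE: aaggatagtttgTTTTATttatcttgtaca
Ube2g2 CPE: aaaacaaagtatTTTTATtcatttgtattt
Ube2q2 CPE: ttttttttttgaTTTTATttttcattgcag

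A hexamer was found in 22 of the 25 tested members with a 3′UTR of at least 100 bases (88%), against 78.1% of 8034 tested protein-coding genes. A CPE was found in 3 of the 25 (12%), against 20.8% of those genes, and the 3 were Ube2t, Ube2g2 and Ube2q2. The CPE of Ube2t lay 64 bases before the annotated end of a 3′UTR of 216 bases, which is short beside the median of 1605 for the members and 1017 for all those genes. Ube2b had neither letter pattern in these windows, and Ube2a and Ube2g1 had the hexamer and no CPE. A match is a description of the letters, and its bearing on the levels was not tested.

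The next group builds the chains that send proteins to the proteasome or serves the degradation of proteins at the endoplasmic reticulum, and has 7 tested genes. Ube2g1, which extends chains on substrates of cullin-RING ligases, was higher in KO at MII. Ube2h, known to work with the CTLH ligase that holds Maea and Rmnd5a, was lower at GV, and Ube2r2, a relative of Cdc34, was higher at GV. The other 4 genes, Ube2g2, Ube2j1, Ube2j2 and Ube2k, were called in no comparison of KO with WT.

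Ube2g1 (ENSMUSG00000020794, chromosome 11, 72607283 to 72686481, plus strand) held 64.6, 45.4 and 65.4 FPKM in WT GV and 66, 33 and 65.3 in KO GV. At MI it held 71.4, 75.6 and 80.4 in WT and 91.2, 103.4 and 97.4 in KO. At MII it held 50.3, 49 and 46 in WT and 106.1, 101.4 and 104.7 in KO. The genotypes overlapped at GV and were apart at MI and MII, where the KO mean was 2.15-fold that of WT at the later time. The log2 difference was 1.09 at MII (SE 0.24, limma adjusted p = 0.00233) and 0.36 at MI (adjusted p = 0.342). From GV to MII the KO level rose by 0.98 (adjusted p = 0.00364) and the WT level changed by -0.25 (95% interval -0.76 to 0.26, adjusted p = 0.388). The difference between these changes was 1.23 (SE 0.34, adjusted p = 0.0425), a call that was lost without any 1 of 11 libraries, KO GV replicate 2 among them (adjusted p 0.00893 to 0.0965 over all alternatives), while the call at MII was made in every alternative fit. The rise in KO was not called in a fit of the KO GV and MII libraries alone.

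Ube2h held 47.2, 47.2 and 31.1 FPKM in WT GV and 16.3, 14.4 and 31.3 in KO GV, where the highest KO library reached the lowest WT library. The log2 difference was -1.04 (limma adjusted p = 0.0318) and was not called without KO GV replicate 2 (adjusted p = 0.132). At MI it held 26.4, 13 and 25.8 FPKM in WT and 33, 43 and 23.8 in KO, with overlap (0.62, adjusted p = 0.212). At MII it held 60.9, 39 and 49.6 in WT and 58.1, 44.1 and 40.2 in KO, again with overlap, after a rise of 1.23 in KO from GV (adjusted p = 0.0061). Of the Ube2h sequence, 45.8% of 50-base windows also occur in other genes, so its counts are uncertain. Ube2r2 held 0.801, 0.553 and 0.554 FPKM in WT GV and 2.45, 5.2 and 1.21 in KO GV, where KO GV replicate 2 was the highest. Its difference of 1.15 (adjusted p = 0.0105) was 0.76 and not called without that library (adjusted p = 0.0562). At MI Ube2r2 held 1.22, 0.787 and 0.53 FPKM in WT and 1.45, 1.31 and 2.21 in KO, without overlap but not called (adjusted p = 0.221). At MII it held 0.934, 1.03 and 1.22 in WT and 1.96, 0.989 and 1.99 in KO, with overlap.

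Ube2j1 and Ube2j2, which sit in the membrane of the endoplasmic reticulum, fell in both genotypes as oocytes matured. Ube2j1 went from 5.74 ± 0.15 FPKM at GV to 1.95 ± 0.516 at MII in WT and from 7.18 ± 0.915 to 1.15 ± 0.501 in KO (SD, n = 3). The log2 changes were -1.21 (limma adjusted p = 0.00103) and -1.95 (adjusted p = 1.35e-05). Those of Ube2j2 were -0.85 (adjusted p = 0.00514) and -0.66 (adjusted p = 0.0359), the latter lost without any 1 of KO GV replicates 2 and 3 and KO MII replicates 1 and 2. Ube2k, which builds chains by itself, and Ube2g2, an E2 of degradation at the endoplasmic reticulum, rose in WT by 0.62 (adjusted p = 0.0403) and 0.80 (adjusted p = 0.0495). Both of these calls stood near the threshold. The Ube2k call was lost without any 1 of WT GV replicates 1 and 2 and WT MII replicates 2 and 3, and the Ube2g2 call without any 1 of 13 libraries.

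The broad and chain-starting enzymes of the Ube2d, Ube2e and Ube2w families include the highest member. Ube2d3 held 249.1 ± 31.2 FPKM in WT GV, 182.3 ± 33.5 in WT MI and 240.2 ± 32.5 in WT MII (SD, n = 3), and 213.2 ± 115.6, 152.3 ± 23.2 and 318.4 ± 42.6 in KO. It was called in no comparison, and the wide spread in KO GV came from replicate 2, at 81.6 FPKM against 259.5 and 298.5. The interval of its difference at MII was -0.32 to 1.13 on the log2 scale.

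Ube2e3 (ENSMUSG00000027011, chromosome 2, 78868124 to 78921293, plus strand), which attaches first ubiquitins, was higher in KO at GV and MII. WT GV libraries held 2.95, 2.6 and 1.79 FPKM and KO GV libraries 6.97, 6.98 and 5.1. WT MI libraries held 4.89, 5.18 and 3.01 and KO MI libraries 5.71, 7.93 and 6.11. WT MII libraries held 3.67, 2.09 and 2.7 and KO MII libraries 8.65, 4.28 and 8.57. The genotypes did not overlap at any stage. The log2 difference was 1.10 at GV (limma adjusted p = 0.00973), 0.52 at MI (not called, adjusted p = 0.203) and 1.06 at MII (adjusted p = 0.00579). The call at GV was kept without KO GV replicate 2 (1.03, adjusted p = 0.0324) and lost without WT GV replicate 3, and the call at MII was made in every alternative fit. The difference between the genotypes in the change from GV to MII was -0.03 (95% interval -0.83 to 0.76).

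Ube2w, which attaches ubiquitin to the amino terminus of proteins, fell steeply during maturation. It held 165.9, 160.8 and 202.3 FPKM in WT GV, 84.9, 122.5 and 149.0 in WT MI and 19.2, 37 and 17.4 in WT MII. KO libraries held 92, 30.8 and 129.5 at GV, 87.9, 88 and 50.2 at MI and 34, 16.5 and 13.2 at MII. All 3 KO GV libraries were below WT GV, and the genotypes overlapped at MI and MII. The log2 change from GV to MII was -2.87 in WT (SE 0.44, limma adjusted p = 2.97e-05) and -1.82 in KO (adjusted p = 0.0031). The difference of -1.28 at GV stood near the threshold (adjusted p = 0.0464). It was not called without any 1 of 11 libraries (-0.68, adjusted p = 0.264 without KO GV replicate 2) or with the replicate number as a block.

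Ube2d1 and Ube2d2a are closely related enzymes that serve many ligases. Ube2d1 held 0.422, 0.391 and 0.595 FPKM in WT GV and 1.78, 1.61 and 1.67 in WT MII, and 0.499, 0.496 and 0.301 in KO GV and 1.16, 1.12 and 1.4 in KO MII. All MII libraries were above all GV libraries, but the gene was at 1 FPKM in 7 libraries, the 6 of MII and 1 of KO MI. It entered the test through the groups where it was high, so these values are a description. Ube2d2a rose from 5.71 ± 1.81 at GV to 17 ± 2.94 FPKM at MII in WT (SD, n = 3), a log2 change of 1.44 (limma adjusted p = 0.00251), against 0.30 in KO (95% interval -0.45 to 1.06). The difference between the genotypes was not called for Ube2d2a (-1.14, adjusted p = 0.156). Ube2dnl1, a low member of the same family with 1 to 40 reads per library, fell by 1.00 in KO (adjusted p = 0.0193), a call lost without any 1 of KO GV replicate 2 and KO MII replicates 2 and 3.

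Ube2n builds the chains used in DNA damage and immune signalling. It held 5.04, 4.85 and 5.21 FPKM in WT GV and 2.71, 1.92 and 3.17 in KO GV, without overlap. The log2 difference of -0.76 (limma adjusted p = 0.0282) was not called without any 1 of 5 GV libraries, all but KO GV replicate 3 (adjusted p = 0.119 without KO GV replicate 2). At MI Ube2n held 3.41, 4.86 and 2.45 FPKM in WT and 2.73, 2.78 and 1.86 in KO, and at MII 3.61, 2.98 and 2.84 in WT and 3.03, 1.71 and 2.54 in KO, with overlap at both stages. Its partner Ube2v2 was under 2 FPKM in every library and was called in no comparison.

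Among the enzymes of ubiquitin-like modifiers are Ube2m and Ube2f for NEDD8, Ube2l6 for ISG15 and Ube2z, which takes ubiquitin or FAT10 from Uba6. Ube2f, which loads NEDD8 for the cullin Cul5, fell 10.7-fold in WT, from 7.21, 9.15 and 7.62 FPKM at GV to 0.812, 0.749 and 0.689 at MII. In KO it went from 5.79, 3.34 and 11.3 to 1.22, 1.24 and 1.22. All MII libraries were below all GV libraries of the same genotype. The log2 changes were -2.36 in WT (SE 0.28, limma adjusted p = 1.4e-06) and -1.68 in KO (adjusted p = 0.000101), and their difference was not called (0.68, adjusted p = 0.265). Ube2z held 2.04, 1.17 and 0.826 FPKM in WT GV and 6.72, 18.5 and 1.66 in KO GV, with overlap, and the difference of 1.68 (SE 0.49, adjusted p = 0.023) was 0.98 and not called without KO GV replicate 2 (adjusted p = 0.132). At MI Ube2z held 3.26, 2.9 and 2.17 FPKM in WT and 2.46, 2.55 and 5.65 in KO, and at MII 4.76, 2.81 and 4.29 in WT and 2.56, 2.04 and 5.55 in KO, with overlap at both stages. Ube2m was at 4.88 FPKM in KO GV replicate 2 and at most 1.8 in every other library.

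Ube2l3, the E2 of the RING-between-RING and HECT ligases, was higher in KO at GV. WT GV libraries held 1.1, 0.861 and 0.741 FPKM and KO GV libraries 2.76, 2.14 and 3.24, and WT MII held 0.805, 0.575 and 0.736 against 1.57, 1.36 and 1.46 in KO MII. The genotypes did not overlap at either stage. At MI they did, at 0.614, 1.26 and 0.852 FPKM in WT and 0.954, 1.48 and 1.28 in KO. In WT only the libraries at 1.1 (GV) and 1.26 FPKM (MI) reached 1 FPKM. The gene thus entered the test through the KO groups, where it was high, and the p-values of KO against WT are a description. The log2 difference was 0.96 at GV (limma adjusted p = 0.00197), kept without KO GV replicate 2 (1.08, adjusted p = 0.00171). That call was also made without a filter on low values and was lost in a fit of the GV libraries alone. At MII it was 0.53 (adjusted p = 0.0356), and that call was lost without any 1 of the 6 MII libraries or with a pseudocount of 5. From GV to MII it fell by 0.58 in KO (adjusted p = 0.0178), a call lost without KO GV replicate 3 or KO MII replicate 2 and under both other scalings. The gene shares 28.6% of its exon bases with Ydjc, which was at 0 to 0.231 FPKM over all libraries (0 to 19 reads). Whether part of the reads of Ube2l3 belong to Ydjc was not tested.

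Among the atypical enzymes, Ube2u was lower in KO at MII. WT libraries held 2.65, 2.58 and 3.25 FPKM at GV, 4.51, 4.16 and 2.38 at MI and 2.93, 2.37 and 2.56 at MII. KO libraries held 2.15, 4.1 and 2.79 at GV, 1.94, 2.54 and 3.15 at MI and 0.318, 0.161 and 0.915 at MII, which rested on 4 to 23 reads. The KO MII libraries were below all 15 others. The log2 difference at MII was -1.34 (limma adjusted p = 0.000522) and the change in KO from GV was -1.46 (adjusted p = 0.000124), both called in every alternative fit that tested the gene, but on low counts. The difference between the genotypes in the change from GV to MII, -1.38 (SE 0.35, adjusted p = 0.0281), was lost without any 1 of 8 libraries. Ube2q2 held 1.85, 1.28 and 0.833 FPKM in WT GV and 4.22, 5.69 and 1.87 in KO GV, and its difference of 1.03 (adjusted p = 0.029) was not called without KO GV replicate 2 (adjusted p = 0.142). At MI Ube2q2 held 2.75, 3.03 and 1.82 FPKM in WT and 4.29, 3.23 and 6.12 in KO, without overlap but not called (adjusted p = 0.181). At MII it held 2.81, 3.05 and 2.51 in WT and 4.46, 2.1 and 5.27 in KO, with overlap. Ube2o, a large enzyme that acts as E2 and E3, rose in WT by 0.99 (adjusted p = 0.034), a call lost without any 1 of WT GV replicates 2 and 3 and WT MII replicates 1 and 3.

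Other genes of the pathway were taken from lists by role, with the genes of smallest adjusted p named. Their counts stand against the shares of all tested genes called higher and lower in KO, which were 13.3% and 7.49% at GV, 3.63% and 13.7% at MI, and 14.9% and 13.8% at MII. Of 9 tested genes for ubiquitin and ubiquitin-like modifiers, 5 were higher and 1 lower in KO at MII. Sumo3, a gene of the modifier SUMO, held 12.6 ± 2.48 FPKM in WT MII and 93.4 ± 10.6 in KO MII (SD, n = 3), a log2 difference of 2.81 (limma adjusted p = 1.15e-06). Ubb, a polyubiquitin gene, held 8598.0 ± 245.8 FPKM in WT GV and 611.3 ± 81.9 in WT MII, and 8217.6 ± 364.4 and 2497.9 ± 548.7 in KO. Its fall was smaller in KO by 2.08 (adjusted p = 0.0022). Like Ube2a, Ubb was lower in WT MII than in KO MII. Rps27a, which encodes ubiquitin fused to a ribosomal protein, was lower in KO at MI (-2.41, adjusted p = 0.000336). At GV the 1 call of the list was Sumo2, lower with a difference of -1.57 (adjusted p = 0.00459), a call that was lost in a fit of the GV libraries alone.

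Of 6 tested E1 genes, 3 were higher and 1 lower in KO at GV, 1 was lower at MI, and 1 was higher and 1 lower at MII. The lower gene was Uba3 each time, the catalytic subunit of the NEDD8 E1. It held 7.43 ± 1.31, 10.4 ± 3.3 and 13.6 ± 1.92 FPKM at GV, MI and MII in WT and 2.99 ± 0.37, 3.56 ± 0.576 and 4.71 ± 0.539 in KO (SD, n = 3). The log2 differences were -1.07 (limma adjusted p = 0.00466), -1.28 (adjusted p = 0.00096) and -1.35 (adjusted p = 0.000273). The call at GV was lost in a fit of the GV libraries alone. Of 8 tested genes with an E2 fold under other names, 1 was higher and 1 lower at GV, 2 were lower at MI, and 1 was higher and 2 lower at MII. Atg10, the E2-like enzyme that joins Atg12 to its target in autophagy, was lower at GV (-0.78, adjusted p = 0.034), MI (-1.18, adjusted p = 0.00314) and MII (-1.10, adjusted p = 0.00277). Its call at GV was lost without any 1 of the 3 WT GV libraries or KO GV replicate 1.

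Of 15 tested genes of the cullin-RING core and its helper ligases, 4 were higher at GV, none was called at MI, and 4 were higher and 2 lower at MII. Skp1a, the adaptor of SCF ligases, held 694.1 ± 106.6 FPKM in WT MII and 4348.3 ± 413.9 in KO MII (SD, n = 3), a difference of 2.65 (limma adjusted p = 1.41e-05). Eloc, the adaptor of Cul2 and Cul5 ligases, held 164.6 ± 63.8 and 632.3 ± 66 FPKM, a difference of 1.99 (adjusted p = 4.7e-05). Of 19 tested ligases that work with single Ube2 enzymes, 2 were higher at GV, 1 was lower at MI, and 2 were higher and 2 lower at MII. The higher ones at MII were Maea, a CTLH subunit (1.40, adjusted p = 0.00054), and Rnf4, which ubiquitinates SUMO-modified proteins (1.57, adjusted p = 0.000623). Rnf20, a partner of Ube2a and Ube2b at histone H2B, was higher at GV (1.19, adjusted p = 0.016), a call lost when WT GV replicate 3 or either of KO GV replicates 1 and 2 was left out. In the change from GV to MII in WT, 12 of these 19 ligases rose and 4 fell, where 28.9% of all tested genes rose and 28.8% fell. In KO 3 of the 19 rose and 4 fell, where 11.9% and 25.4% of all tested genes did. The other lists in WT gave 0 rises and 5 falls of 9 modifier genes and 6 and 5 of 15 cullin-RING genes. They gave 2 and 0 of 6 E1 genes and 2 and 3 of 8 genes with an E2 fold.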

How the data were processed

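Smart-seq2 with oligo(dT) priming was used for the 18 oocyte libraries, per the labels' protocols. The authors deposited 1 table of FPKM values per gene and library. The submitters' processing notes list the mm10 build and DESeq2 1.38.3 but not their use. Aligner, counter and gene annotation: not given in the sources used here. Gene identifiers were matched to GENCODE vM21 (27829 found, 45 not), and its exon lengths turned FPKM into whole reads (within 0.05 read) for 92.8% to 93.3% of nonzero values in each library. These reads gave the depth.

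Genes at 1 FPKM or more in at least 3 libraries were tested as log2(FPKM + 1) with limma 3.58.1 (R 4.3.3). A single model estimated the means of the 6 groups and left 12 residual degrees of freedom, the variance followed a trend with level, and tests were two-sided. The fit was checked on simulated data. No scaling was added. Values in each library are given for members called in KO against WT or in the difference between genotypes, at most 16, and pathway lists by counts with up to 2 examples per comparison. Some items are not reported here. Some further values of members were added after they were seen. Members and lists were chosen with earlier results of these data known. Alternatives were pseudocounts of 0.1 and 5, no filter, a filter at 5 FPKM, median-of-ratios and quantile scaling, a fit of the groups compared alone, the replicate number as a block, and leaving out each library. Replicate numbers are in the labels without a stated pairing. PCR copies of 1 molecule cannot be recognised, so the read depth bounds counting error alone. Tables and figures used Python 3.11.15, numpy 2.4.6, pandas 2.3.3 and matplotlib 3.10.9.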

Additional observations from a re-analysis of the deposited data

Results flagged for a closer look

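For 4 members the change from GV to MII differed between the genotypes in the interaction term of the limma fit. This is 14.8% of the 27 tested members, where 5.61% of all tested genes were called. The difference, KO minus WT on the log2(FPKM + 1) scale, was 2.93 for Ube2a (adjusted p = 0.000103), where all 3 WT MII libraries were below every WT GV library. In KO all 3 MII libraries were below KO GV replicates 1 and 3 and above replicate 2, and without replicate 2 the change in KO was -0.32 (adjusted p = 0.317) and the difference 2.67 (adjusted p = 7.86e-05). It was 1.57 for Ube2b (adjusted p = 0.023), which fell in both genotypes and from a lower level in KO. It was -1.38 for Ube2u (adjusted p = 0.0281), where all 3 KO MII libraries were below every KO GV library and rested on 4 to 23 reads. It was 1.23 for Ube2g1 (adjusted p = 0.0425), which rose in KO. The calls of Ube2b, Ube2u and Ube2g1 were lost without any 1 of 5, 8 and 11 libraries, in that order. Without KO GV replicate 2 the difference was 1.34 for Ube2b (limma adjusted p = 0.0394). There it was -1.19 for Ube2u (adjusted p = 0.0518) and 0.90 for Ube2g1 (adjusted p = 0.0654), neither of them called. With 3 libraries per group, no library was tested for standing apart.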

How the results depend on the processing

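Of 44 calls of members, 25 were kept without any 1 library and 22 in every one of the 26 alternative fits that tested the gene. Of the 21 calls in KO against WT or in the difference between genotypes, 10 and 8 were. Leaving out 1 library gave 4 to 14 called members at GV, 1 to 2 at MI, 5 to 7 at MII, 8 to 14 for GV to MII in WT, 8 to 15 in KO, and 1 to 12 for the difference. Without a filter on low values 6 members were called at GV and 1 for the difference. A fit of the groups compared alone called 1 at GV, 10 at MII, 17 for WT, 6 for KO and 2 for the difference. Median-of-ratios scaling called 3 members at MI and quantile normalization 4. With 1 library left out, the share of all genes called ran from 10.6% to 22.5% at MI and from 21.7% to 34.5% at MII. For GV to MII it ran from 48.6% to 63.1% in WT and from 29.6% to 40.8% in KO. The shares for the other counts are given above. The cause of these moves was not tested, beyond the fewer libraries or other genes in each fit. These scalings moved the median of all tested genes from 0.174 to -0.043 and 0.012 at GV, from -0.132 to 0.015 and 0.028 at MI, from -0.170 to 0.057 and -0.030 for the difference, from 0.087 to 0.018 and 0.222 in WT and from -0.068 to 0.079 and 0.204 in KO. For Ube2a, differences near 0 turned sign, none of them called. With 1 library left out the difference ranged from -0.18 to 0.25 at GV (0.05 without WT GV replicate 1, 0.25 without KO GV replicate 2) and from -0.06 to 0.16 at MI (-0.06 when WT MI replicate 1 was left out, -0.01 when KO MI replicate 1 was). From GV to MII in KO it ranged from -0.32 to 0.11 (0.01 without KO GV replicate 1, 0.11 without KO GV replicate 3, 0.00 without KO MII replicate 3) and was 0.14 under both other scalings. With the replicate number as a block the calls numbered 9 at GV, 1 at MI, 6 at MII, 10 in WT, 12 in KO and 3 for the difference. Of all genes 19.8%, 17.0%, 28.3%, 57.4%, 37.0% and 4.29% were called there, in the same order. The deviations of same-numbered libraries had r from -0.522 to 0.42 over 45 pairs, 15 of them over 0.1. All 3 pairs were over 0.1 only between KO MI and KO MII (0.237, 0.264 and 0.42), which were not compared. In 9 of 30 comparisons a library correlated best with its own number, and the numbers were not taken to pair the libraries of the groups compared. Depth limits the low members: Ube2u in KO MII rested on 4 to 23 reads.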
